A study of Homo sapiens with 42 samples.

Results

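The Notch genes described here, 10 of the 60609 genes counted, were followed by gene symbol through all 42 poly-A RNA-seq libraries of 786-O cells, an established clear cell renal cell carcinoma line that lacks functional VHL and has no functional HIF-1α of its own. They were the receptors NOTCH1, NOTCH2, NOTCH3 and NOTCH4, the ligands JAG1, JAG2 and DLL4, and the target genes HES1, HEY1 and HEY2. In each batch 9 of the 10 reached the minimum mean normalized count (0.5) and were tested, while DLL4 was too low. The 786-O cells express HIF-2α at all times, so every group, WT cells included, carried endogenous HIF-2α.

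Batch 1 held 27 libraries, 3 each of 9 groups. They were WT cells, the HIF-1b KIN line (clone A21) and the HIF-2a KIN line (clone A31), each KIN line being 1 clone in which both endogenous alleles were tagged with V5 and HaloTag, and 6 lines in which an L30 promoter drove a tagged transgene in WT cells. The transgenes encoded HIF-1α (HIF-1a), HIF-1α with a DNA-binding mutation (HIF-1a R30E), HIF-1α with the dimerization mutations R170A and V191D (HIF-1aDM), HIF-2α (HIF-2a), HIF-2α with a DNA-binding mutation (HIF-2a R27E), and HIF-2α with the dimerization mutations R171A and V192D (HIF-2aDM). The genotype label of the HIF-2aDM libraries names HIF-1α, whereas their titles and descriptions name HIF-2α, which was followed here. The 15 libraries of batch 2 came from 5 groups of 3, namely WT cells and the lines HIF-1a, HIF-2a, HIF-2a/1a and HIF-1a/2a. The last pair carried L30-driven chimeras, in which the N-terminal structured domains (DNA binding and dimerization) come from the isoform named first and the C-terminal intrinsically disordered region (IDR) from the isoform named second. Transgene lines were drug-selected pools, and the p-values below measure the spread between the libraries of a group. WT cells had neither tag nor selection, and no line carried the tag alone. In comparisons of transgene lines with WT, tag, selection and HIF-α part therefore cannot be told apart.

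Notch is a receptor that reads signals between touching cells. When a ligand of the Jagged or Delta-like family on one cell binds a Notch receptor on its neighbour, proteases cut the receptor and its intracellular part moves to the nucleus, joins the DNA-binding protein RBPJ and switches on repressor genes of the HES and HEY families. In kidney the pathway is known for its part in laying down nephron segments, and HIF proteins and Notch signaling are known to cross-talk under low oxygen.

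The upstream sequences of JAG1, JAG2 and HES1 are shown because these were the members called in at least one comparison. They are the RefSeq GRCh38.p14 bases upstream of the gene start, at chr20:10674000-10674249 (minus strand) for JAG1, chr14:105168825-105169026 (minus strand, the bases outside annotated transcripts) for JAG2 and chr3:194135898-194136147 (plus strand) for HES1. The capitals mark, on either strand, the HIF core letters ACGTG or GCGTG and the RBPJ core letters TGGGAA.
JAG1: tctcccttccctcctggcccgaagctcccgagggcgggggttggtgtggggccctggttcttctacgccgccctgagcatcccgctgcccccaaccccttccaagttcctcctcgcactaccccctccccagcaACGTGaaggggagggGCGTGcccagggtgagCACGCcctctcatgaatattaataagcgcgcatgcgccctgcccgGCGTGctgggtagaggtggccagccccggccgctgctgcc
JAG2: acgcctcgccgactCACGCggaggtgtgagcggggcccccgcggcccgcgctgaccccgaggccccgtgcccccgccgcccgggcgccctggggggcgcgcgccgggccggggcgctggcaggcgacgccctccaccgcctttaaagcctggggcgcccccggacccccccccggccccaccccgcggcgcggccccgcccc
HES1: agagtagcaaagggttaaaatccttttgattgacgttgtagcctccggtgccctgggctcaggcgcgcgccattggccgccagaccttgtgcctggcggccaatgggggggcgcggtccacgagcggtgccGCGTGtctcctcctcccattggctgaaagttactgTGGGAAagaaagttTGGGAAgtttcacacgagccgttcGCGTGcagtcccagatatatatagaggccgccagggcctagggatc

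The JAG1 window held 1 ACGTG, 116 bases before the start, and 3 GCGTG. The JAG2 window held 1 GCGTG, and that of HES1 held 2 GCGTG and 2 TGGGAA. Of 35116 promoter windows of 250 bases, 18.5% held ACGTG, 32.2% GCGTG and 20.8% TGGGAA, so such matches are common and describe letters, not binding. RefSeq promoter windows were read for 9 of the 10 members, and HEY1, on chromosome 8, was left out of this step.

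On hg38, JAG1 lies at chr20:10637684-10673999 and JAG2 at chr14:105140982-105168824, both on the minus strand. HES1 is at chr3:194136148-194138732 on the plus strand, NOTCH1 at chr9:136494433-136546048 and NOTCH2 at chr1:119911553-120100779, both on the minus strand. Reads were counted over exons without regard to strand. Antisense genes overlap NOTCH1, NOTCH2 and JAG1, and a non-coding gene on the same strand overlaps JAG2. In the counting mode used, a read on exons of both genes is given to neither. Reads of these members can therefore be lost, or mixed where the annotation used for counting lacked the overlapping gene. NOTCH2 also has near-identical partial copies in the genome, whose shared reads had been dropped, and its level is therefore uncertain.

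Counted reads per library ran from 42377599 to 101186554 in batch 1 and from 76366799 to 109642159 in batch 2, where a floor of 3 reads equals 0.0311 to 0.0713 and 0.0271 to 0.0397 CPM (reads of a gene scaled to a common library total, with TMM factors). In batch 1 the libraries numbered 3 held 72801922 to 101186554 reads and the others 42377599 to 76188914. The transgenes showed in their own genes: HIF1A averaged 3.62 CPM in WT cells and 45.2 in the HIF-1a line in batch 1, and 3.29 and 148 CPM in batch 2, while EPAS1, which encodes HIF-2α, went from 217 to 673 CPM and from 142 to 473 CPM with the HIF-2a transgene. EPAS1 averaged 91.7 CPM in the HIF-2a KIN line, and HIF1A 13.7 and 10.4 CPM in the HIF-2a lines of batches 1 and 2. The renal marker PAX8 was above the floor in all 42 libraries, whereas CA9, a marker of clear cell carcinoma, was above it in 7 of 27 and 12 of 15. Summed endothelial markers reached at most 1.04 CPM in batch 1 and 1.20 in batch 2, summed leukocyte markers 0.442 and 0.278, summed smooth muscle and pericyte markers 1.35 and 2.79, and CD3E was at 0 in all libraries.

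On a scale per exon length and library size (RPKM), the receptors NOTCH1 and NOTCH2 and the ligand JAG1 were the most abundant members. Median RPKM over libraries was 17.5 in batch 1 and 9.95 in batch 2 for NOTCH1, 14.5 and 18.6 for NOTCH2, and 8.36 and 6.03 for JAG1. HES1 (3.77 and 2.64 RPKM), JAG2 (1.96 and 1.16) and HEY1 (0.543 and 0.311) followed. The remaining 4 members were near the detection floor. NOTCH3, a receptor best known from smooth muscle, had 0 to 6 reads per library in batch 1 and 0 to 11 in batch 2. NOTCH4, a receptor of endothelium, had 0 to 9 and 0 to 8 reads, and the target HEY2 had 0 to 7 and 0 to 4. DLL4, the Delta-like ligand of sprouting vessels, had 0 to 3 reads in every library of both batches. At this depth a difference between groups in these 4 genes could hardly be detected, and NOTCH3, NOTCH4 and HEY2 were called in no comparison.

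**Figure D1:**
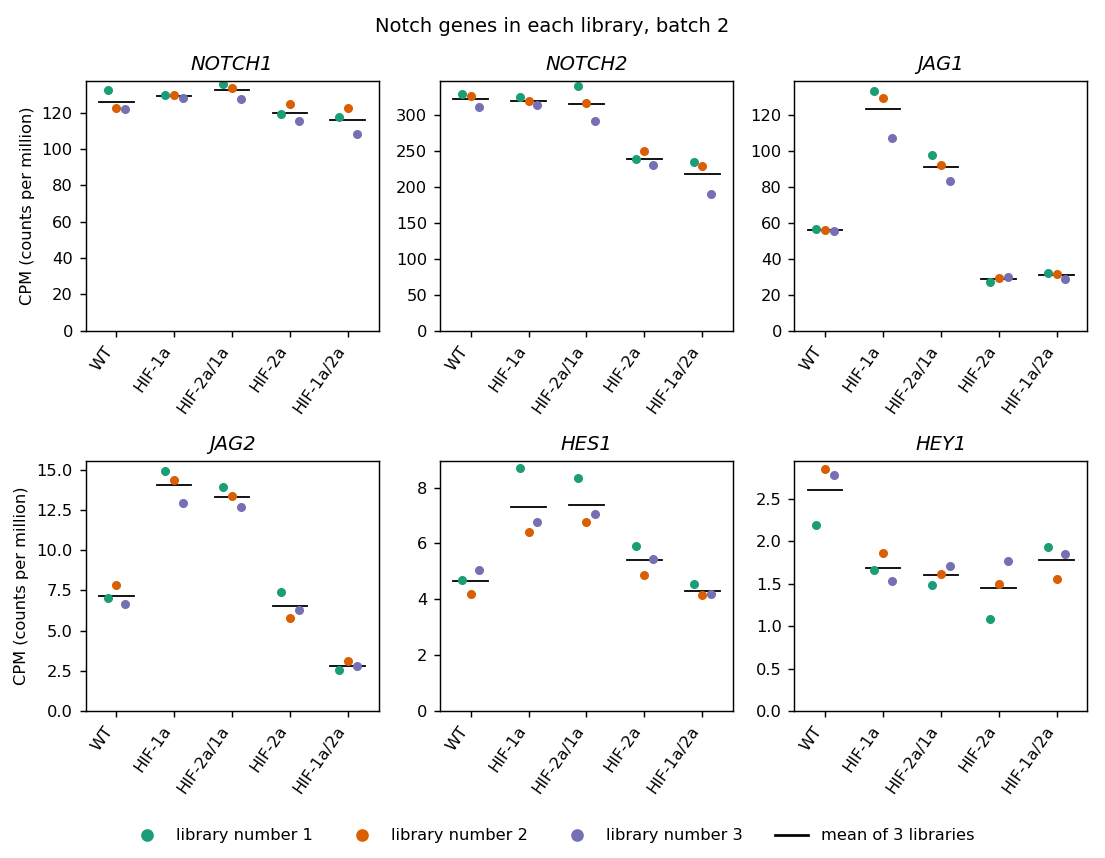
CPM of the 6 expressed members in each of the 15 libraries of batch 2, by group, with the colour of a point giving its library number and the bar the group mean. JAG1 and JAG2 libraries with a HIF-1α IDR lie above those with a HIF-2α IDR, whereas the NOTCH1 libraries of the 5 groups lie between 108 and 136 CPM.

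The ligands were the members that moved most. In batch 2, JAG1, the main Jagged ligand of epithelia, stood at 56.4, 56.0 and 55.6 CPM in the 3 WT libraries, 134, 129 and 107 in the HIF-1a line, 97.9, 92.1 and 83.1 in the HIF-2a/1a line, 27.0, 29.4 and 30.1 in the HIF-2a line and 32.3, 31.6 and 29.0 in the HIF-1a/2a line. The lines with a HIF-1α IDR lay above every WT library and those with a HIF-2α IDR below every one, and only the HIF-2a and HIF-1a/2a libraries overlapped each other. A call here required a 2-fold change or more and an adjusted p no higher than 0.01 in edgeR's quasi-likelihood test. JAG1 rose in the HIF-1a line by 1.14 on the log2 scale (SE 0.0684, adjusted p = 4.6e-18, 2.20-fold). In this comparison 4.39% of all tested genes were called, and JAG1 was the only member called of 9 tested. In the other 3 lines the JAG1 changes were under 2-fold and so not called, with log2 values of 0.71 in HIF-2a/1a (adjusted p = 1.4e-11), -0.94 in HIF-2a (adjusted p = 1.9e-15) and -0.84 in HIF-1a/2a (adjusted p = 6.0e-14).

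JAG2, a second Jagged ligand, split by IDR in a like way but not with respect to WT cells. Its batch 2 libraries read 7.00, 7.84 and 6.65 CPM in WT cells, 14.9, 14.4 and 12.9 in HIF-1a, 13.9, 13.4 and 12.7 in HIF-2a/1a, 7.42, 5.80 and 6.30 in HIF-2a and 2.55, 3.13 and 2.77 in HIF-1a/2a. All 6 libraries with a HIF-1α IDR exceeded the WT libraries, the HIF-2a libraries overlapped them, and the HIF-1a/2a libraries were below all others. JAG2 fell by 1.34 on the log2 scale in HIF-1a/2a (SE 0.109, adjusted p = 3.8e-14, 2.53-fold lower), the only member called there, where 7.78% of all tested genes were called. Its log2 changes in HIF-1a and HIF-2a/1a were 0.97 (adjusted p = 9.0e-11) and 0.91 (adjusted p = 7.3e-10), just under 2-fold, and leaving out HIF-1a replicate 3 or WT replicate 2 took the first to 1.03 or 1.05 and over the threshold. In the HIF-2a line it was -0.12, with a 95% interval from -0.32 to 0.08 (adjusted p = 0.39). No member was called in HIF-2a/1a or HIF-2a, where 3.49% and 7.58% of all tested genes were.

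By adjusted p alone, with no minimum fold, 4 members differed from WT cells in HIF-1a, 4 in HIF-2a/1a, 3 in HIF-2a and 3 in HIF-1a/2a, of 9 tested. The share of all genes was 17.2%, 16.7%, 27.4% and 27.8%, in the same order. In the lines with a HIF-1α IDR these were JAG1, JAG2 and HES1, higher, and HEY1, lower. In HIF-2a they were JAG1, NOTCH2 and HEY1 and in HIF-1a/2a JAG1, JAG2 and NOTCH2, all lower. All 4 lines were set against the same WT libraries.

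The 4 transgene lines of batch 2 form a design in which IDR and structured domains are exchanged, and it asks which region of the protein a change goes with. Averaged over both structured domains, JAG1 was 1.82 lower on the log2 scale with a HIF-2α IDR than with a HIF-1α IDR (-1.82, SE 0.0498, adjusted p = 5.1e-31, 3.52-fold). JAG2 was 3.18-fold lower (-1.67, SE 0.0741, adjusted p = 4.1e-23). These were the 2 members called of 9, against 4.41% of all genes. By adjusted p alone HES1 (-0.59, adjusted p = 1.4e-07), NOTCH2 (-0.47, adjusted p = 6.8e-13) and NOTCH1 (-0.14, adjusted p = 0.0034) were also lower, which made 5 of 9 members against 24.7% of all genes. For HEY1 no difference by IDR was detected (-0.02, 95% interval -0.28 to 0.24).

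For the structured domain no member was called, against 1.04% of all genes, and by adjusted p alone 2 of 9 members differed against 11.4%. With HIF-2α domains in place of HIF-1α domains, JAG1 was lower (-0.26, SE 0.0486, adjusted p = 5.7e-05) and JAG2 higher (0.58, SE 0.0734, adjusted p = 4.9e-08). For JAG2 the IDR difference itself depended on the domain. With HIF-1α domains the group means went from 14.1 ± 1.04 CPM with the HIF-1α IDR to 2.82 ± 0.295 with the HIF-2α IDR (SD, n = 3), and with HIF-2α domains from 13.3 ± 0.628 to 6.51 ± 0.831. The interaction, a contrast added after the values were seen, was 1.28 on the log2 scale (SE 0.147, adjusted p = 1.5e-08), and JAG2 was the only member called in it, against 1.18% of all genes. For JAG1 the interaction was 0.32 (SE 0.0972, adjusted p = 0.026).

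**Figure D2:**
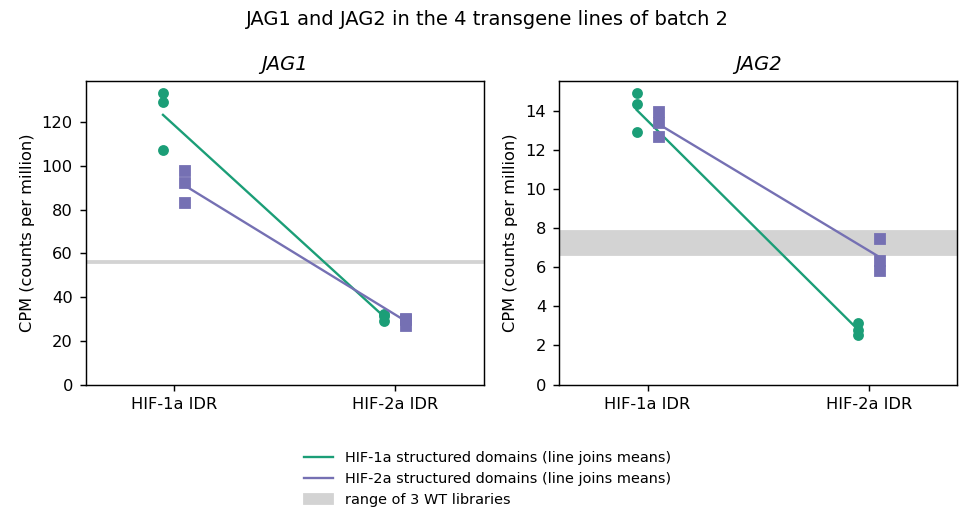
CPM of JAG1 and JAG2 in the transgene lines of batch 2 by the origin of the IDR (x axis), with circles for HIF-1α and squares for HIF-2α structured domains, lines joining group means and a grey band for the range of WT libraries. JAG1 crosses the WT band with either set of domains, while JAG2 drops below it with HIF-1α domains (mean 2.82). With HIF-2α domains and the HIF-2α IDR, JAG2 averages 6.51, and its libraries overlap the band, whose lower edge is 6.65.

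In batch 1 the same ligands were measured beside the mutants. JAG1 read 60.3, 71.0 and 51.5 CPM in WT cells, 134, 117 and 92.0 in HIF-1a, 66.1, 137 and 96.1 in HIF-1a R30E, and 77.7, 114 and 89.5 in HIF-1aDM. The HIF-1a and HIF-1aDM libraries lay above all WT libraries and the HIF-1a R30E libraries overlapped them. The log2 changes from WT were 0.91, 0.71 and 0.63 (adjusted p = 0.063, 0.21 and 0.56). None passed, and neither did the JAG1 difference between HIF-1a and either mutant, the 95% intervals being -0.39 to 0.79 against HIF-1a R30E and -0.30 to 0.87 against HIF-1aDM.

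With HIF-2α transgenes JAG1 read 30.8, 26.6 and 28.3 CPM in HIF-2a, 54.2, 74.9 and 35.2 in HIF-2a R27E and 64.7, 102 and 74.9 in HIF-2aDM. All 3 HIF-2a libraries were below every other library of the batch. Against WT cells the HIF-2a change was -1.11 on the log2 scale (SE 0.303, adjusted p = 0.0135), which missed the threshold. It was called with DESeq2 (adjusted p = 0.0067), no filter on low counts (2.2e-06), only the groups compared (0.00034) and the replicate block (0.00014). Leaving out all batch 1 libraries numbered 3 also called it (-1.19, adjusted p = 0.0076). Against HIF-2aDM JAG1 was 2.86-fold lower (-1.51, SE 0.306, adjusted p = 0.0012), the only member called, and the call was lost without HIF-2aDM replicate 2 (adjusted p = 0.0121). Against HIF-2a R27E the difference was -0.97 (adjusted p = 0.045). Against HIF-1a it was 4.04-fold lower (-2.02, SE 0.311, adjusted p = 8.4e-05).

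JAG2 in batch 1 read 11.5, 12.5 and 17.4 CPM in WT cells, 21.0, 24.1 and 27.5 in HIF-1a and 7.09, 10.3 and 11.2 in HIF-2a. HIF-1a libraries lay above and HIF-2a libraries below all WT libraries, but neither change passed the test (0.81, adjusted p = 0.075, and -0.54, adjusted p = 0.23). Between the lines JAG2 was 2.56-fold lower in HIF-2a (-1.35, SE 0.284, adjusted p = 0.0028). That call was lost without HIF-1a replicate 2 or 3 or HIF-2a replicate 1 or 2, with adjusted p between 0.0104 and 0.0316. In every one of the 9 groups of batch 1 JAG2 and NOTCH1 were highest in the library numbered 3. Without all libraries numbered 3 the JAG2 difference between these lines was -1.39 (adjusted p = 0.00013). In the mutant lines JAG2 read 15.9, 15.2 and 25.6 CPM in HIF-1a R30E and 11.1, 16.5 and 21.4 in HIF-1aDM. It read 11.7, 14.1 and 26.0 CPM in HIF-2a R27E and 11.2, 13.7 and 15.3 in HIF-2aDM. Every mutant line overlapped WT cells, and all but HIF-2aDM also overlapped HIF-1a.

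The counts of members called in batch 1 follow beside the share of all tested genes. With 9 members tested and shares this low, a count of 0 is near the share of all genes. No member was called in HIF-1a, HIF-1a R30E, HIF-1aDM, HIF-2a, HIF-2a R27E or HIF-2aDM against WT, where 3.79%, 2.61%, 0.457%, 5.72%, 0.496% and 0.474% of all tested genes were called. None was called in HIF-1a against HIF-1a R30E (1.75% of all genes) or HIF-1aDM (1.37%), nor in HIF-2a against HIF-2a R27E (3.63%), and 1 was in HIF-2a against HIF-2aDM (3.96%). HIF-2a against HIF-1a gave JAG1 and JAG2, both lower in HIF-2a, against 2.40% of all genes. The same comparison in batch 2 gave the same 2 members, JAG1 4.23-fold lower (-2.08, SE 0.071, adjusted p = 5.7e-27) and JAG2 2.13-fold lower (-1.09, SE 0.101, adjusted p = 4.0e-12), against 3.78% of all genes.

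**Figure D3:**
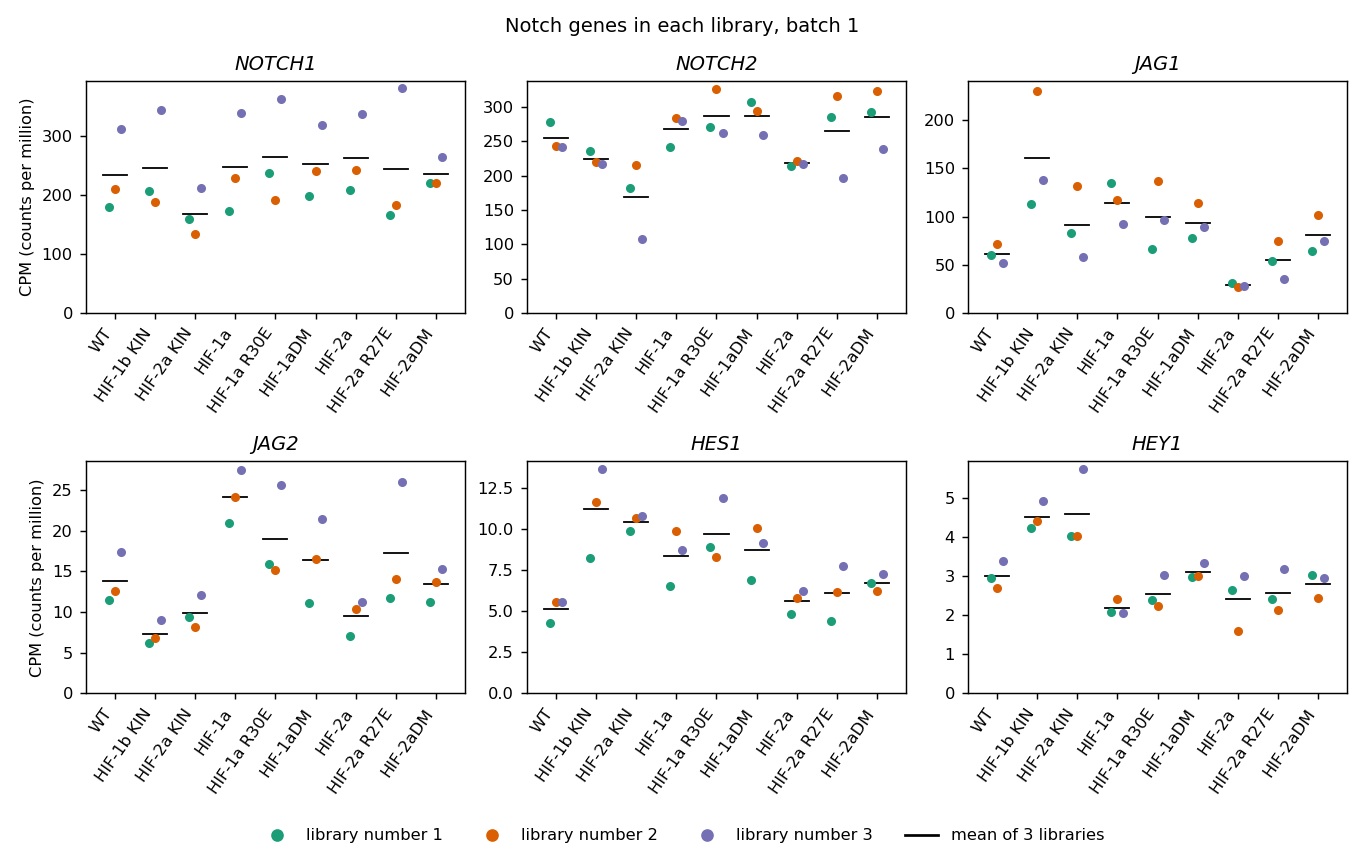
CPM of the 6 expressed members in each of the 27 libraries of batch 1, by group, with the colour of a point giving its library number and the bar the group mean. JAG1 is lowest in the 3 HIF-2a libraries, at 26.6 to 30.8 CPM, and NOTCH1 and JAG2 are highest in the library numbered 3 of each of the 9 groups.

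The KIN clones, which carry no transgene, differed from WT cells in HES1, and HIF-1b KIN also in JAG1. In the HIF-1b KIN clone JAG1 read 113, 230 and 138 CPM, all above the WT libraries, and rose by 1.39 on the log2 scale (SE 0.304, adjusted p = 0.0068, 2.62-fold). HES1, the repressor that is the classical direct Notch target, read 4.30, 5.55 and 5.53 CPM in WT cells and 8.26, 11.7 and 13.6 in this clone, with no overlap, a rise of 1.12 (SE 0.224, adjusted p = 0.0029, 2.18-fold). These were 2 of 9 members, against 1.38% of all genes. Both calls were lost in 5 of 6 fits that each left out 1 library, with adjusted p of 0.0104 to 0.0850 for JAG1 and 0.0104 to 0.0281 for HES1, and held only without HIF-1b KIN replicate 1. JAG2 read 6.15, 6.80 and 9.02 CPM in this clone, below all WT libraries, with a change of -0.92 (adjusted p = 0.080).

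In the HIF-2a KIN clone HES1 read 9.85, 10.6 and 10.8 CPM, all above the WT libraries, and rose by 1.03 (SE 0.224, adjusted p = 0.0025, 2.04-fold). It was the only member called there, against 4.14% of all genes, and the call was lost without WT replicate 1 (0.91, adjusted p = 0.0224). JAG1 read 83.3, 131 and 57.6 CPM and overlapped WT cells. Each KIN line is 1 clone, so that the tag and differences between clones cannot be told apart.

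HES1 was called against WT in no transgene line, and came nearest to the threshold in HIF-1a R30E. In batch 1 it read 6.50, 9.86 and 8.72 CPM in HIF-1a, 8.87, 8.28 and 11.9 in HIF-1a R30E, 6.91, 10.1 and 9.15 in HIF-1aDM, and 4.80, 5.81 and 6.20 in HIF-2a. The 9 libraries with any HIF-1α transgene lay above the WT libraries, and the HIF-2a libraries overlapped them. So did those of HIF-2a R27E, whereas HIF-2aDM, at 6.73, 6.22 and 7.23 CPM, was also above all WT libraries (0.40, adjusted p = 0.66). The log2 changes of the first 4 lines were 0.71, 0.92, 0.77 and 0.12 (adjusted p = 0.0485, 0.0102, 0.13 and 0.80), none called, though HIF-1a R30E passed without its replicate 2 (1.02, adjusted p = 0.0091). The HES1 difference between HIF-1a and HIF-1a R30E did not pass, with a 95% interval of -0.65 to 0.22.

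In batch 2 HES1 read 4.68, 4.19 and 5.04 CPM in WT cells, 8.71, 6.41 and 6.76 in HIF-1a, 8.35, 6.75 and 7.03 in HIF-2a/1a, 5.91, 4.88 and 5.43 in HIF-2a and 4.54, 4.15 and 4.20 in HIF-1a/2a. The lines with a HIF-1α IDR did not overlap WT cells and those with a HIF-2α IDR did. The log2 changes were 0.65 (adjusted p = 2.6e-05), 0.68 (adjusted p = 1.4e-05), 0.24 (adjusted p = 0.13) and -0.09 (adjusted p = 0.63), all under 2-fold.

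HEY1, a HES-related repressor, was low throughout. In batch 2 it read 2.19, 2.86 and 2.78 CPM in WT cells, 1.66, 1.87 and 1.53 in HIF-1a, 1.49, 1.62 and 1.71 in HIF-2a/1a, 1.09, 1.49 and 1.77 in HIF-2a and 1.94, 1.56 and 1.85 in HIF-1a/2a. All 12 libraries with a transgene were below the 3 WT libraries, which had no tag or drug selection. The log2 changes of -0.63, -0.69, -0.84 and -0.53 were under 2-fold (adjusted p = 0.0070, 0.0036, 0.00025 and 0.018), and that of HIF-2a passed the fold threshold only without HIF-2a replicate 3 (-1.01). In batch 1 HEY1 read 2.95, 2.68 and 3.40 CPM in WT cells and 2.08, 2.40 and 2.06 in HIF-1a (-0.46, adjusted p = 0.28). HIF-1a was the only transgene line of batch 1 whose libraries were all below WT, HIF-2a reading 2.64, 1.59 and 3.01 CPM and HIF-1aDM averaging 3.10. In the KIN clones it was above all WT libraries, at 4.23, 4.42 and 4.92 CPM in HIF-1b KIN and 4.03, 4.01 and 5.73 in HIF-2a KIN, and did not pass the test (0.58, adjusted p = 0.23, and 0.62, adjusted p = 0.089).

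The receptors changed least. NOTCH1 differed from WT cells by -0.46 to 0.18 on the log2 scale in the groups of batch 1, with adjusted p of at least 0.43, and by -0.10 to 0.09 in those of batch 2, with adjusted p of at least 0.17. The batch 1 values are loose, since WT cells alone spanned 179, 209 and 311 CPM, and the 95% interval for HIF-2a KIN ran from -1.09 to 0.16. NOTCH2 in batch 2 read 329, 326 and 311 CPM in WT cells, 239, 250 and 230 in HIF-2a and 234, 229 and 190 in HIF-1a/2a. Both lines with a HIF-2α IDR were below all other libraries of the batch, by -0.41 (SE 0.0587, adjusted p = 1.2e-07) and -0.55 (SE 0.0587, adjusted p = 1.1e-10) from WT, changes under 2-fold. In batch 1 NOTCH2 read 278, 243 and 242 CPM in WT cells, 214, 221 and 218 in HIF-2a and 182, 215 and 107 in HIF-2a KIN, with changes of -0.24 (adjusted p = 0.48) and -0.59 (adjusted p = 0.052).

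**Figure D4:**
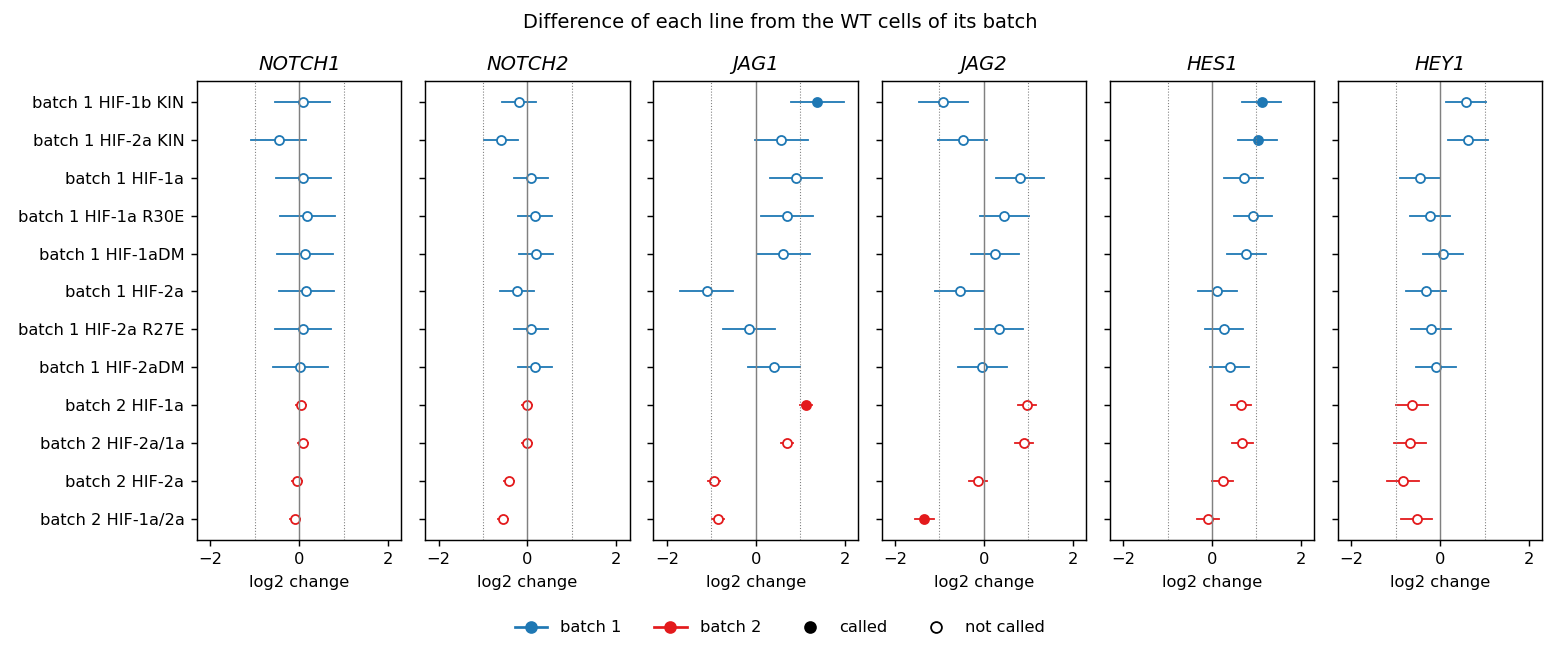
Log2 change from WT cells of the same batch for the 6 expressed members, with 95% intervals, batch 1 in blue and batch 2 in red, filled points for called changes and dotted lines at 2-fold. The intervals of batch 2 are narrower than those of batch 1, for example from 1.00 to 1.27 against 0.32 to 1.50 for JAG1 in the HIF-1a line.

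The responses to HIF-1α and HIF-2α were compared between batches in a fit to the WT, HIF-1a and HIF-2a libraries of both. For the HIF-1α response 1 gene of 26763 differed (0.00374%), HIF1A itself, and for the HIF-2α response 0%, so no member was called in either. For JAG1 the difference, batch 2 minus batch 1, was 0.06 for HIF-1α (95% interval -0.30 to 0.43) and 0.02 for HIF-2α (-0.35 to 0.38). For JAG2 it was 0.00 (-0.45 to 0.45) and 0.28 (-0.20 to 0.75). This fit gave each gene a shared estimate of the spread, although batch 1 varied more than batch 2. The JAG1 intervals of the difference are narrower than those of batch 1 alone and so understate the uncertainty. A lack of called genes here does not show that the responses were equal. Batches also differed in RNA extraction and library kit, and their part in levels such as NOTCH1, with WT means of 233 ± 69.1 CPM in batch 1 and 126 ± 5.99 in batch 2 (SD, n = 3), cannot be told apart.

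Of a wider list of 56 Notch pathway genes, chosen by role, 52 were tested in batch 1 and 53 in batch 2. The HIF-2a line had the most called genes of batch 1, 8 of 52 (5.72% of all genes were called), and of those 7 were higher, with a list median of 0.17 on the log2 scale beside -0.09 for all genes. In batch 2 the HIF-2a line had 8 of 53 called, 7 higher, where 7.58% of all genes were called (median 0.18, all genes 0.07), and HIF-1a/2a had 9, all higher, against 7.78% (0.13, all genes 0.08). HIF-1a and HIF-2a/1a had 4 and 3, against 4.39% and 3.49%. In the other groups of batch 1 between 0 and 3 were called, against 0.457% to 4.14% of all genes, with none in HIF-1aDM or HIF-2a R27E. For the IDR 5 of 53 were called against 4.41%, and for the structured domain 0 against 1.04%.

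Among ligand handling genes, NEURL1B, a ubiquitin ligase that drives ligand endocytosis, rose from 6.64 ± 1.38 to 32.4 ± 7.21 CPM with HIF-2α in batch 1 (SD, n = 3), a log2 change of 2.28 (SE 0.316, adjusted p = 7.7e-06), and from 3.36 ± 0.115 to 19.3 ± 2.67 CPM in batch 2 (2.54, SE 0.112, adjusted p = 3.9e-23). The other transgene lines of batch 1, mutants included, averaged 9.95 (HIF-1aDM) to 14.8 CPM (HIF-1a), and none was called against WT for NEURL1B. HIF-2a was called for it against HIF-2aDM but not against HIF-2a R27E, which averaged 13.8 CPM. In batch 2 NEURL1B rose in all 4 lines, by 1.19 in HIF-1a, 1.33 in HIF-2a/1a and 1.83 in HIF-1a/2a. DLK2, a ligand-like membrane protein, rose with HIF-2α from 0.854 to 2.92 CPM in batch 1 (1.76, adjusted p = 0.00039) and by 1.50 in HIF-2a and 2.23 in HIF-1a/2a in batch 2, and it was higher with a HIF-2α than a HIF-1α IDR (1.53, adjusted p = 3.3e-10). EGFL7, a secreted protein reported to bind Notch, rose from 37.1 to 77.8 CPM in HIF-1a in batch 1 (1.08), in HIF-1a R30E (1.48) and in HIF-2aDM (1.12). The HIF-1a R30E call held in 6 of 6 fits leaving out a library, that of HIF-1a in 2 of 6 and that of HIF-2aDM in 0 of 6. All other groups of batch 1 also averaged above WT cells for EGFL7 without a call. Among them were the KIN clones, at 65.3 (HIF-1b KIN) and 72.4 CPM (HIF-2a KIN). In batch 2 EGFL7 averaged 13.2 CPM in WT cells, 23.1 in HIF-1a, 25.8 in HIF-2a/1a, 16.4 in HIF-2a and 13.3 in HIF-1a/2a, and it was not called.

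MFNG, a fringe glycosyltransferase that modifies the Notch receptor and shifts its choice of ligand, gave the largest changes among pathway genes above 1 CPM. It averaged 56.7 ± 5.83 CPM in WT cells of batch 1 and 2.86 ± 0.776 and 2.91 ± 0.989 in the HIF-1b KIN and HIF-2a KIN clones (SD, n = 3). It fell 19.8-fold in the first (-4.31, SE 0.217, adjusted p = 2.1e-13) and 19.2-fold in the second (-4.26, SE 0.217, adjusted p = 2.1e-13). With HIF-2α it fell by 1.20 in batch 1 and by 1.56 in batch 2, and it also fell in HIF-1a R30E by 1.41. It was not called in HIF-1a of either batch.

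In the nucleus, KAT2B, an acetyltransferase that joins the Notch activation complex, rose with HIF-2α by 1.03 in batch 1, a call kept in 1 of 6 fits leaving out a library. In batch 2 it rose by 1.39 in HIF-2a, from 5.55 to 14.4 CPM, and by 1.19 in HIF-1a/2a, both kept in 6 of 6. The corepressor TLE3 rose by 1.22 in HIF-2a in batch 1, from 25.9 to 60.7 CPM, a call kept in 4 of 6, and by 1.41 in HIF-1a/2a in batch 2. APH1B, a subunit of the γ-secretase that cuts Notch, rose by 1.00 in HIF-2a in batch 2, a call kept in 3 of 6. HES7, known from the segmentation clock, fell in HIF-1a by 2.03, from 1.15 to 0.281 CPM, and in HIF-2a/1a by 1.28, the latter a call kept in 4 of 6. The other genes called against WT or for the IDR, namely DNER, DLL3, TLE2, MAML3, DTX1, DTX3 and HES2, had group means under 1 CPM in every group, and DTX1 was at 0 in the 3 WT libraries of batch 2.

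**Figure D5:**
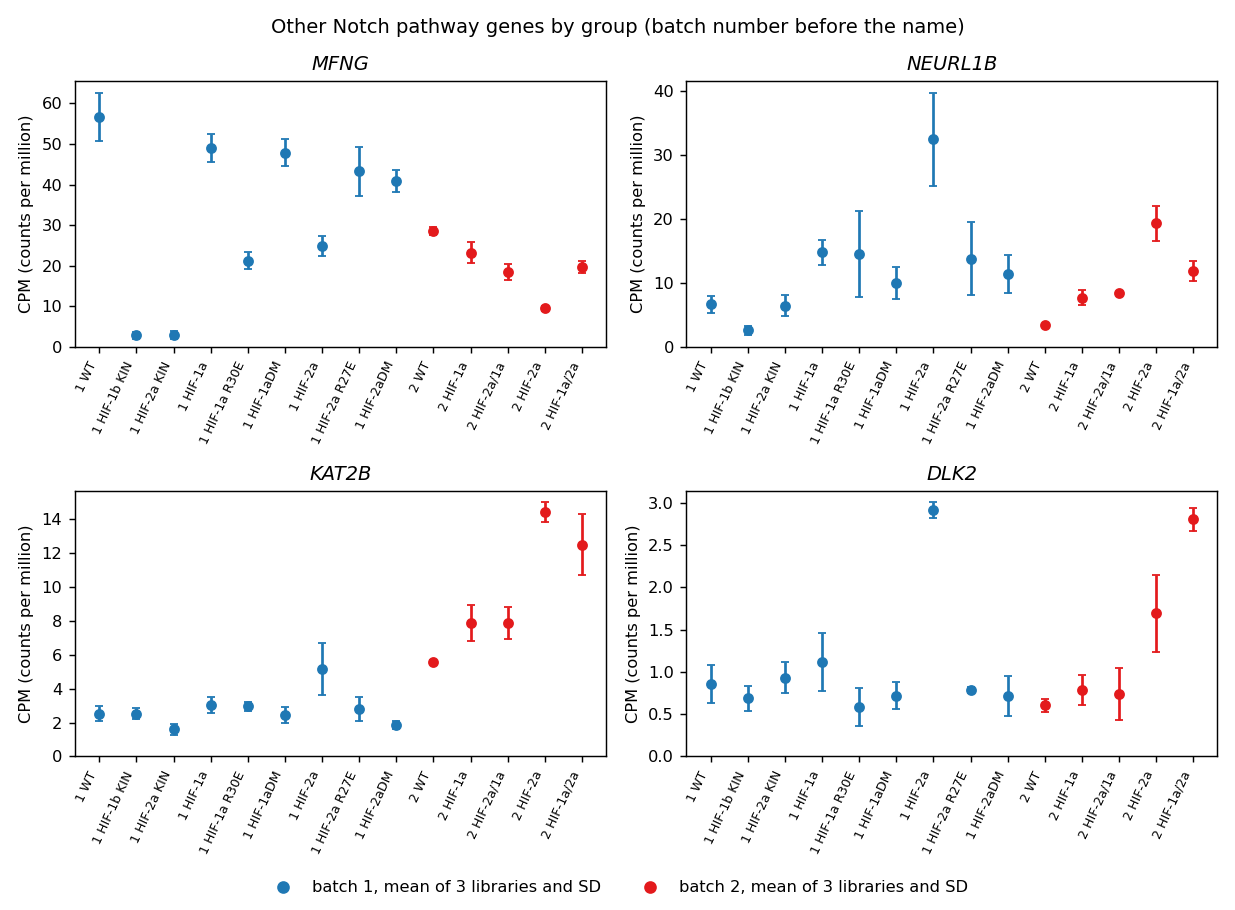
Mean CPM with SD of MFNG, NEURL1B, KAT2B and DLK2 in the 14 groups of both batches, 3 libraries a group. MFNG is near 3 CPM in both KIN clones, and the other 3 genes are highest of their batch in a line with a HIF-2α IDR.

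JAG1 had the widest range of the members over the 12 groups set against WT cells of their batch, 2.42 on the log2 scale, followed by JAG2 (2.31), HEY1 (1.45), HES1 (1.21), NOTCH2 (0.83) and NOTCH1 (0.64). Among 12461 genes with enough reads, those whose 12 differences ran most like those of JAG1 were ENTPD7 (Pearson r = 0.94), ELP2 (0.94) and TVP23C (0.93). The differences share the WT libraries of each batch, and TVP23C has a close copy in the genome. As differences of mean log2 CPM, ENTPD7 and TVP23C were lowest of batch 1 in HIF-2a, at -0.69 and -0.87, as JAG1 was at -1.08. In batch 2 ENTPD7 was -0.66 in HIF-2a and -0.80 in HIF-1a/2a. The rises of JAG1 were not shared in size. In HIF-1a JAG1 was 0.90 in batch 1 and 1.13 in batch 2. There ENTPD7 was -0.04 and 0.25, ELP2 -0.14 and -0.12, and TVP23C -0.09 and 0.11. ELP2 was below WT cells in all 12 groups.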

How the data were processed

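Poly-A RNA-seq of 42 libraries was analysed within 2 batches. The authors deposited raw counts per gene: reads had been aligned with STAR to hg38, kept where they mapped uniquely and counted with HTSeq in union mode, unstranded, on GENCODE genes. The submitters' notes name HTSeq 0.11.1, SAMtools 1.9 and STAR 2.7. Spike-in RNA was added in batch 1, but the count files hold no spike-in rows, so changes are relative to total counted RNA. In bulk samples fewer cells of a type and less RNA per cell cannot be told apart.

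Counts were fitted in R 4.3.3 with edgeR 4.0.16 (quasi-likelihood test, TMM factors 0.810 to 1.15 in batch 1 and 0.960 to 1.03 in batch 2), all groups of a batch in one fit. The minimum mean normalized count was 0.5, which left 23410 genes in batch 1 and 28724 in batch 2. Calls required a 2-fold change and a p, adjusted by Benjamini-Hochberg over all tested genes, no higher than 0.01. Where 3 reads is taken as the floor, counting error only is covered. Scripts were tested on simulated data.

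The members, the 56 pathway genes and the markers were chosen with earlier results of these data known. All members were named, with HIF1A, EPAS1 and ARNT as checks (ARNT averaged 24.0 CPM in HIF-1b KIN and 24.2 in WT), pathway genes called against WT or for the IDR, and the 3 genes most like the member with the widest range. Exon lengths came from GENCODE release 44 and promoters from RefSeq. Alternatives were DESeq2 1.42.0, RLE factors, no filter, a replicate block, only the groups compared, adjusted p of at most 0.05 without a fold minimum, and leaving out each library. The interaction contrast and leaving out all batch 1 libraries numbered 3 were added after seeing the data.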

Additional observations from a re-analysis of the deposited data

Results flagged for a closer look

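One result was singled out, because the effect of the IDR on JAG2 in batch 2 differed between the structured domains by a test of the difference itself. The IDR by structured-domain interaction was 1.28 on the log2 scale (edgeR, SE 0.147, adjusted p = 1.5e-08). JAG2 averaged 14.1 CPM in HIF-1a and 2.82 in HIF-1a/2a, which share the HIF-1α domains, and 13.3 in HIF-2a/1a and 6.51 in HIF-2a, which share the HIF-2α domains. The contrast was chosen after these values had been seen. HIF1A, on which reads of a HIF-1α fragment in a transgene count, averaged 148, 107, 10.4 and 108 CPM in HIF-1a, HIF-2a/1a, HIF-2a and HIF-1a/2a. EPAS1, on which reads of a HIF-2α fragment and of the endogenous gene count, averaged 184, 231, 473 and 572 CPM in the same order. In WT cells of batch 2 EPAS1 averaged 142 CPM. The part of transgene level in the JAG2 difference was not tested.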

How the results depend on the processing

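No log2 change of the 6 expressed members switched sign under an alternative where it was called in either fit. Among uncalled log2 changes 83 switched sign, 70 of them in fits leaving out 1 library. Of the counts of members called, 284 stayed within 1.5 times the reported count and 35 did not. In batch 1, HIF-2a against WT went from 0 to 1 member (JAG1) with DESeq2, with no filter on low counts, with only the groups compared and with the replicate block. Only the groups compared took HIF-1b KIN from 2 to 0. Without all batch 1 libraries numbered 3, HIF-1b KIN had 1, HIF-2a against WT 1 and HIF-2a against HIF-2a R27E 1. At an adjusted p of at most 0.05 with no fold minimum the counts in batch 1 were 1 for HIF-1a, 1 for HIF-1a R30E, 1 for HIF-2a and 2 for HIF-2a against HIF-2a R27E, and in batch 2 they were 4 for HIF-1a, 4 for HIF-2a/1a, 3 for HIF-2a, 4 for HIF-1a/2a, 4 for HIF-2a against HIF-1a, 6 for the IDR, 2 for the structured domain and 2 for the interaction. Leaving out 1 library gave 0 to 2 for HIF-1b KIN, 0 to 1 for HIF-2a KIN, HIF-1a R30E and HIF-2a against HIF-2aDM, 1 to 2 for HIF-2a against HIF-1a in batch 1, 1 to 2 for HIF-1a in batch 2 and 0 to 1 for HIF-2a in batch 2. The 6 for the IDR at an adjusted p of at most 0.05 took in a member near the detection floor, from among NOTCH3, NOTCH4 and HEY2. The causes were not tested.

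Same-numbered libraries of batch 1 deviated together with a mean correlation of 0.242, with all 3 numbers over 0.1 in 7 of 13 comparisons, and in batch 2 it was 0.00327 and 0 of 5. The numbers were therefore not taken as a pairing of the batch, and in those 7 comparisons the block changed no member's call. Over all comparisons it changed 1 call of a member, JAG1 with the replicate block in HIF-2a against WT in batch 1 (-1.07, adjusted p = 0.000141). Among the other pathway genes it lost no call and added 16 in batch 1, where 25 had been called over all comparisons, and 1 in batch 2, beside 36. Depth limits NOTCH3, NOTCH4, DLL4 and HEY2, which had at most 11 reads in any library.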
